A study of Homo sapiens with 3 samples.

Results

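Messenger RNA of the genes that empty, refill and sense the calcium store of the endoplasmic reticulum was compared between cells given a control hairpin and cells given a hairpin against TRAF7. The 10 genes were listed by name and family: the reticulum calcium pumps ATP2A2 and ATP2A3, the release channels RYR1, ITPR1 and ITPR3, the calcium sensors STIM1 and STIM2, and the plasma membrane channels ORAI1, ORAI2 and ORAI3. They are 10 of 58735 genes with a value in each library, and all 10 were found by their symbol in GENCODE release 29. The list was chosen with earlier results of these data known. It leaves out ATP2A1, ITPR2, RYR2 and RYR3 of the same families, whose values are given separately. The series holds 3 RNA-seq libraries of cells labelled KG1a, a line established from an acute myeloid leukaemia. One group is a single library, the control, from cells labelled wild type and infected with lentivirus carrying a control short hairpin RNA (shCtrl). The other is a pair of libraries, knockdown 1 and knockdown 2, from cells labelled TRAF7 knockdown and infected with lentivirus carrying shTRAF7; TRAF7 is a RING-domain ubiquitin ligase. All 3 carry 1 batch label, and the labels say neither whether the knockdown pair shares a hairpin nor whether it came from separate cultures. The series title places calcium downstream of TRAF7, through TWIST1 and the ATP-gated calcium-permeable channel P2RX1, so the comparison asks how the transcripts of the store calcium genes stand in the same cells.

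Store-operated calcium entry couples the filling of the reticulum to the plasma membrane. Receptors that activate phospholipase C raise inositol trisphosphate, which opens IP3 receptors and lets calcium leave the store; STIM proteins in the reticulum membrane sense the fall in luminal calcium, cluster at contacts with the plasma membrane and open ORAI channels, and SERCA pumps return the calcium to the store. Blood cells are known to use this route as a main path of calcium entry.

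Reads assigned to genes numbered between 16014485 and 16254461 per library. The control had TRAF7 at 46.5 FPKM (reads scaled by exon length and library size), against 15.6 for knockdown 1 and 18.3 for knockdown 2, and P2RX1 at 3.83, 1.10 and 0.821. Part of the identity expected of KG1a was absent: CD34, the surface antigen that defines the line, had 0 reads in the control, 1 for knockdown 1 and 10 for knockdown 2 (up to 0.0667 FPKM). HOXA9 was at 0 throughout and MPO had 1 read in all, whereas PTPRC, SPN, CD33 and FGFR1 were above 1 FPKM. All 6 erythroid markers averaged at least 1 FPKM, with a summed level of 128.1 FPKM in the control, 226.8 for knockdown 1 and 204.1 for knockdown 2. Of 6 stromal and epithelial markers 3 averaged at least 1 FPKM (sums 131.6, 162.2 and 144.7), and of 5 lymphoid markers 1 did (sums 2.92, 1.85 and 2.76). Reads on genes annotated as sense intronic numbered 8860 in the control, 7275 for knockdown 1 and 7729 for knockdown 2. The part of these differences in the results that follow was not tested.

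The control stood above both knockdown libraries for ATP2A3, RYR1, ORAI2, ORAI3, ITPR1 and STIM1, below both for ATP2A2 and ORAI1, and between them for STIM2 and ITPR3. That is 6 of 10 genes lower in both knockdown libraries, where 30.8% of the 12640 genes averaging 1 FPKM or more were lower, and 2 of 10 higher, where 42.5% were. In these bulk samples fewer cells of a type and less RNA per cell cannot be told apart. Both counts set 2 libraries against the same control. With reads scaled to all assigned reads, 8 of the 10 were lower in both and 0 higher, where 43.7% and 29.8% of all genes were. With quantile normalization the counts were 8 and 1, where 33.9% and 38.5% were. Some of these counts rest on values close to the control. On the deposited scaling knockdown 2 held STIM1 at 98.7%, ATP2A2 at 101.4% and ORAI1 at 102.6%. Scaled to all assigned reads it held STIM2 at 98.95%, and with quantile normalization knockdown 1 held ATP2A2 at 100%. At least 1.5-fold lower in both were 3 genes, ATP2A3, RYR1 and ORAI3, where 3.69% of genes averaging 1 FPKM or more were. At least 2-fold lower in both was 1, RYR1, where 1.11% were. RYR1 itself averaged 0.944 FPKM, so it counts among the 10 but not among the genes behind the shares given here. Taken singly, knockdown 1 had 7 of the 10 below the control, where 43.2% of all genes were, and knockdown 2 also 7, where 44.9% were. The median change of the 10 was −0.19 on the log2(FPKM + 1) scale, with −0.19 in knockdown 1 and −0.32 in knockdown 2, where the medians of all genes were 0.06 and 0.03.

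By limma with an intensity trend on log2(FPKM + 1), 0 of the 9 store genes averaging 1 FPKM or more reached an adjusted p of 0.05, as did 0% of all 12640 genes tested. At an unadjusted p under 0.05 were 2, ATP2A3 and ORAI3, both lower, where 3.73% of all genes were lower at that level and 9.19% were in either direction. RYR1 averaged 0.944 FPKM, below the filter, and was not in that fit. In limma-voom on whole reads recovered from the FPKM values, with all 10 genes tested, ATP2A3 and RYR1 fell and 0 rose, where 0.659% of 15034 genes fell, 0.206% rose and 0.865% did either. In simulated libraries with known changes, false calls exceeded their nominal share in both tests. The dispersion of the simulated libraries was set and not estimated from these data. The lone control was assumed in both fits to vary as the knockdown pair does, and p-values measure only the spread between those libraries, which may be technical.

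**Figure D1:**
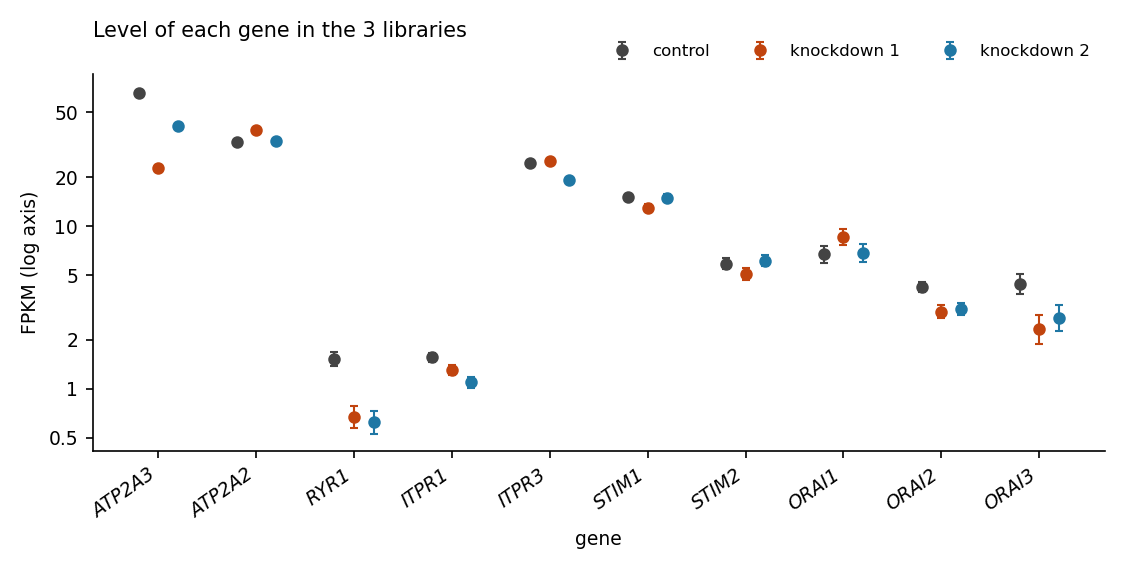
FPKM of the 10 genes on a log axis, with 1 point per library and bars for the exact 95% Poisson interval of the recovered reads, which covers counting error only. ATP2A3 is the gene with the widest spread, from 65.7 FPKM in the control to 22.8 in knockdown 1, and RYR1 lies lowest, at 1.54 FPKM or less.

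ATP2A3 encodes SERCA3, a reticulum calcium pump known from blood and epithelial cells. It lies on the minus strand of chromosome 17, at positions 3923870 to 3964464 (GENCODE release 29, GRCh38). The gene was at 65.7 FPKM in the control (7650 reads), 22.8 in knockdown 1 (2450 reads) and 41.2 in knockdown 2 (4622 reads). Both knockdown libraries lay below the control and also apart from each other: knockdown 1 held 34.7% of the control level (95% interval for counting error 33.2% to 36.4%) and knockdown 2 held 62.7% (60.5% to 65.1%). Knockdown 2 was thus 1.81-fold above knockdown 1 (1.72 to 1.90), a gap well outside counting error. Fitted on log2(FPKM + 1), ATP2A3 gave −1.07 ± 0.34 (SE; limma's adjusted p = 0.486). With limma-voom it was −1.10 ± 0.22 (SE; adjusted p = 0.00452), and over all 9 alternatives fitted the adjusted p ran from 0.00452 to 0.652, so the call rests on the reads test alone. On log2(FPKM + 1), knockdown 1 alone gave −1.48 and knockdown 2 alone −0.66.

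ATP2A2 encodes SERCA2, the pump found in nearly all cells, on the plus strand of chromosome 12 at positions 110280756 to 110351093. Its level was 33.0 FPKM in the control, 39.0 for knockdown 1 and 33.4 for knockdown 2. Knockdown 1 was the high library, at 118.3% of the control (114.7% to 122.0%), while knockdown 2 was at 101.4% (98.2% to 104.7%), an interval that includes the control level. The fitted log2 change was 0.13 ± 0.19 (SE; limma's adjusted p = 0.860), and it turned to −0.06 under quantile normalization, where knockdown 2 stood at 92.3% of the control. The remaining family member, ATP2A1, the SERCA1 pump of fast skeletal muscle, was at 1.90, 0.981 and 1.33 FPKM (log2 change −0.43; limma's adjusted p = 0.652).

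Summed over the SERCA genes, the level was 100.6 FPKM in the control, 62.8 for knockdown 1 and 76.0 for knockdown 2. ATP2A3 made up 65.3% of that sum in the control, 36.4% for knockdown 1 and 54.3% for knockdown 2, and ATP2A2 made up 32.8%, 62.1% and 44.0%. The order of the pumps within a library depended on the length by which reads are divided. ATP2A2 and ATP2A3 had nearly equal reads in the control, 7652 and 7650, but the exons of all ATP2A2 transcripts together span 13745 bases and its longest protein-coding transcript 4453, against 6893 and 4826 for ATP2A3. With the longest protein-coding transcript as the length, an alternative chosen after the data were seen, ATP2A3 made up 47.4%, 21.1% and 35.95% and was below ATP2A2 in every library. On either length the ATP2A3 share was highest in the control and lowest in knockdown 1.

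RYR1 encodes the ryanodine receptor of skeletal muscle, a very large release channel that calcium itself can open, on the plus strand of chromosome 19 at positions 38433699 to 38587564. It was at 1.54 FPKM in the control (414 reads), 0.672 in knockdown 1 (167 reads) and 0.624 in knockdown 2 (162 reads). The knockdown libraries lay close together, with knockdown 2 at 0.928 of knockdown 1 (95% interval for counting error 0.743 to 1.16), and both lay below the control, at 43.8% (36.3% to 52.5%) and 40.6% (33.7% to 48.8%) of it. RYR1 fell in limma-voom, with a log2 change of −1.24 ± 0.26 (SE; adjusted p = 0.00870), and had limma's adjusted p = 0.387 when the filter on low values was dropped; no other alternative tested it. All 8 striated muscle markers were below 1 FPKM in every library, with sums of 0.567, 0.607 and 0.221 FPKM, and CACNA1S, the voltage sensor that opens RYR1 in muscle, was at 0 in all 3. RYR2, the cardiac form, was at 1.17, 0.506 and 1.01 FPKM and RYR3 at 0.0494, 0.0126 and 0.0242. RYR1 was therefore 55.8% of the ryanodine receptor sum in the control, 56.4% for knockdown 1 and 37.6% for knockdown 2.

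On the deposited scaling the IP3 receptors, the release channels opened by inositol trisphosphate, did not move as a block. ITPR3 (chromosome 6, positions 33620365 to 33696574, plus strand) was at 24.5 FPKM in the control, 24.98 for knockdown 1 and 19.1 for knockdown 2. Only knockdown 2 was low on that scaling, at 77.7% of the control (74.1% to 81.5%), while knockdown 1 was at 101.9% (97.5% to 106.5%). The fitted log2 change was −0.16 ± 0.22 (SE; limma's adjusted p = 0.849). With quantile normalization knockdown 1 held ITPR3 at 87.8% of the control and knockdown 2 at 71.7%. Scaled to all assigned reads they held it at 92.7% and 73.7%, and ITPR1 and ITPR2 were lower in both too. ITPR3 shares 1025 of its 9870 exon bases with UQCC2 on the opposite strand, which was at 6.99, 12.3 and 11.7 FPKM. Without a stated strand setting the reads on the bases shared with UQCC2 cannot be told apart.

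ITPR1 (chromosome 3, positions 4493345 to 4847840, plus strand) stood at 1.56 FPKM in the control, against 1.31 for knockdown 1 and 1.10 for knockdown 2. Both knockdown libraries were below the control, at 83.7% (75.5% to 92.7%) and 70.2% (63.0% to 78.0%), with a fitted log2 change of −0.22 ± 0.25 (SE; limma's adjusted p = 0.814). ITPR2, the remaining IP3 receptor gene, was at 2.79, 1.94 and 2.74 FPKM. ITPR3 thus held 84.9%, 88.5% and 83.2% of the IP3 receptor sum in the 3 libraries. ITPR1 held 5.42%, 4.64% and 4.79%, or 15.3%, 13.3% and 13.6% on the longest protein-coding transcript, since the exons of its 56 annotated transcripts together span 32454 bases against 10197 for that transcript.

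STIM1 and STIM2, the luminal calcium sensors, did not pass the test. STIM1, the main activator of ORAI channels (chromosome 11, positions 3854527 to 4093210, plus strand), was at 15.1 FPKM in the control, 13.0 for knockdown 1 and 14.9 for knockdown 2. STIM2, which responds to milder emptying of the store (chromosome 4, positions 26857678 to 27025381, plus strand), was at 5.88, 5.06 and 6.13 FPKM. For both genes knockdown 1 was the low library, at 86.0% of the control in each case (80.2% to 92.2% for STIM1 and 76.7% to 96.4% for STIM2), and the interval of knockdown 2 included the control level (92.4% to 105.5% and 93.7% to 116.1%). Fitted log2 changes were −0.11 ± 0.19 (SE; limma's adjusted p = 0.887) and −0.07 ± 0.19 (SE; 0.944). STIM1 made up 72.0%, 72.0% and 70.9% of the STIM sum in control, knockdown 1 and knockdown 2.

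The ORAI genes, which encode the pore subunits of the calcium release-activated channel, split. ORAI3 (chromosome 16, positions 30949066 to 30956461, plus strand) was at 4.41 FPKM in the control (197 reads), 2.33 in knockdown 1 (96 reads) and 2.75 in knockdown 2 (118 reads). Both knockdown libraries were low, at 52.9% (41.0% to 67.8%) and 62.2% (49.1% to 78.5%) of the control, and they did not differ from each other beyond counting error (knockdown 2 at 1.18 of knockdown 1, 0.891 to 1.56). ORAI3 gave a fitted value of −0.62 ± 0.20 (SE; log2), and limma's adjusted p was 0.490, with a range of 0.263 to 0.652 over 8 alternatives. An annotated transcript of another gene on the same strand, AC135048.1, shares 1397 of the 2643 exon bases of ORAI3 and was at 0, 0 and 0.0377 FPKM, and how reads on shared bases were assigned is not stated.

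ORAI2 (chromosome 7, positions 102433106 to 102456821, plus strand) was at 4.21 FPKM in the control, 2.99 for knockdown 1 and 3.11 for knockdown 2. The knockdown libraries lay together below the control, at 71.0% (63.4% to 79.4%) and 74.0% (66.3% to 82.5%) of it, with a log2 change of −0.36 ± 0.19 (SE; limma's adjusted p = 0.602). ORAI2 shares 584 of its 11103 exon bases with ALKBH4 on the opposite strand, which was at 6.92, 9.06 and 7.77 FPKM. Without a stated strand setting the reads on these shared bases cannot be told apart. ORAI1, the subunit best known from T cells (chromosome 12, positions 121626550 to 121642677, plus strand), was at 6.70, 8.58 and 6.88 FPKM. Here knockdown 1 was the high library, at 128.0% of the control (108.0% to 151.8%), and knockdown 2 was at 102.6% (85.9% to 122.6%), or at 97.4% when reads were scaled to all assigned reads. Its log2 change was 0.17 ± 0.20 (SE; limma's adjusted p = 0.816).

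The ORAI sum was 15.3 FPKM in the control, 13.9 for knockdown 1 and 12.7 for knockdown 2. ORAI1 made up 43.7% of it in the control, 61.7% for knockdown 1 and 54.0% for knockdown 2, and ORAI3 made up 28.8%, 16.8% and 21.6%. On the longest protein-coding transcript the ORAI1 share was 51.3%, 68.9% and 61.6%, so the control had the lowest ORAI1 share on either length. ORAI2 and ORAI3 were closest in level: their ranges over the 3 libraries overlapped (2.99 to 4.21 and 2.33 to 4.41 FPKM).

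**Figure D2:**
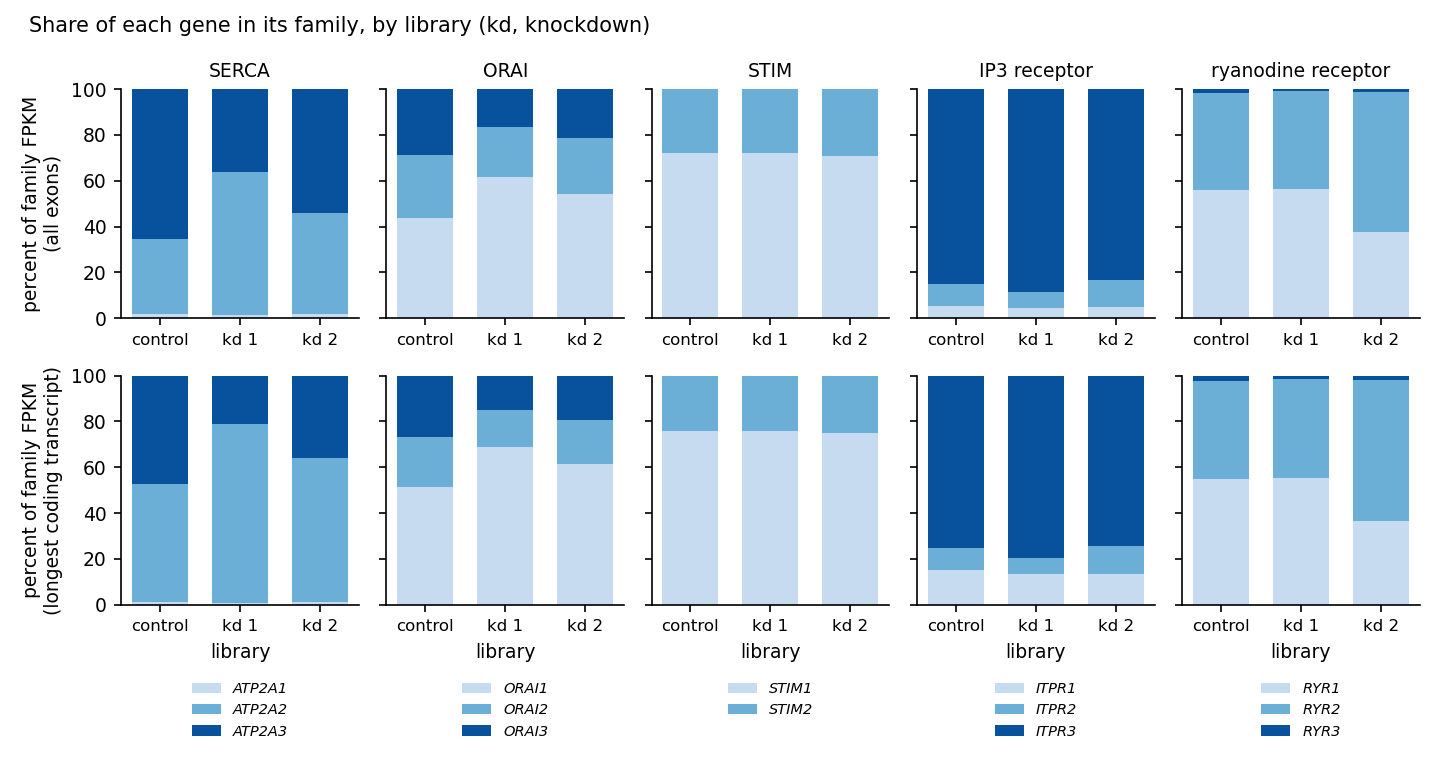
Share of each gene in the summed FPKM of its family (percent), for the control and knockdown libraries, with lengths from all exons in the top row and from the longest protein-coding transcript in the bottom row. The ATP2A3 share falls from 65.3% in the control to 36.4% in knockdown 1 in the top row and from 47.4% to 21.1% in the bottom row, while the STIM1 share stays between 70.9% and 72.0% in the top row.

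**Figure D3:**
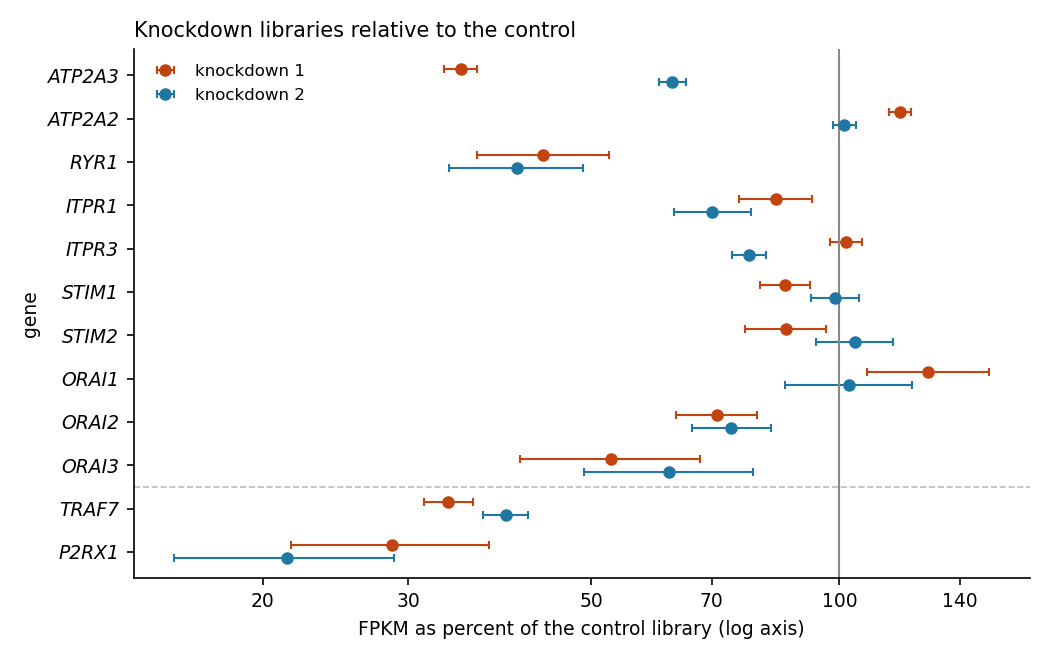
FPKM of each gene in knockdown 1 and knockdown 2 as a percent of the control, on a log axis, with bars for the exact 95% interval of the ratio of reads (counting error only); TRAF7 and P2RX1 are below the dashed line. RYR1, ORAI2, ORAI3 and ITPR1 have both points left of the control with overlapping bars, whereas the points of ATP2A3 at 34.7% and 62.7% are apart.

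Across the 10 genes the order of the mean level was ATP2A3, ATP2A2, ITPR3, STIM1, ORAI1, STIM2, ORAI2, ORAI3, ITPR1 and RYR1. Neighbours in this order had ranges over the libraries that overlapped in 3 cases: ATP2A3 with ATP2A2, ORAI2 with ORAI3, and ITPR1 with RYR1. On the longest protein-coding transcript ATP2A2 came before ATP2A3 and STIM1 before ITPR3, ITPR1 moved from place 9 to place 7, and ORAI3 came before ORAI2.

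ATP2A3 and P2RX1, the channel named in the series title, are neighbours in the genome. P2RX1 lies on the same minus strand of chromosome 17 at positions 3896592 to 3916500, and 7369 bases with 0 annotated genes separate the 3′ end of ATP2A3 from the start of P2RX1. P2RX1 stood at 28.7% of the control in knockdown 1 (21.6% to 37.6%) and at 21.4% in knockdown 2 (15.6% to 28.9%), against 34.7% and 62.7% for ATP2A3. In limma-voom P2RX1 fell too (log2 change −2.01 ± 0.33, SE; adjusted p = 0.000614), and by limma on log2(FPKM + 1) its log2 change was −1.31 ± 0.24 (SE; adjusted p = 0.403). The library with the lower value was knockdown 1 for ATP2A3 and knockdown 2 for P2RX1.

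Of 14 other genes averaging 1 FPKM or more and with a start site within 500 kb of that of ATP2A3, 3 were lower in both knockdown libraries, 5 higher in both and 6 had the control in between. Of all genes averaging 1 FPKM or more, 30.8% were lower in both and 42.5% higher. The 3 lower neighbours were P2RX1, ZZEF1 (4.17, 3.73 and 3.57 FPKM) and CYB5D2 (2.96, 2.00 and 2.85 FPKM). CAMKK1, a kinase gene on the far side of P2RX1, was at 1.71, 2.03 and 1.71 FPKM, and P2RX5, a further ATP-gated channel gene, at 1.37, 1.90 and 1.10 FPKM. SHPK was at 0.602, 1.09 and 1.31 FPKM, on 39, 65 and 82 reads. NCBP3, ITGAE, HASPIN, AC116914.2, EMC6, CTNS, ANKFY1 and UBE2G1 had log2 changes between 0.00 and 0.31 in the fit, with limma's adjusted p from 0.792 for EMC6 to 0.996 for CTNS. Of the 13 neighbours that limma-voom tested, P2RX1 was the 1 called, where 0.865% of all genes tested were. P2RX1 is named in the series title, and this neighbourhood was chosen with earlier results of these data known.

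**Figure D4:**
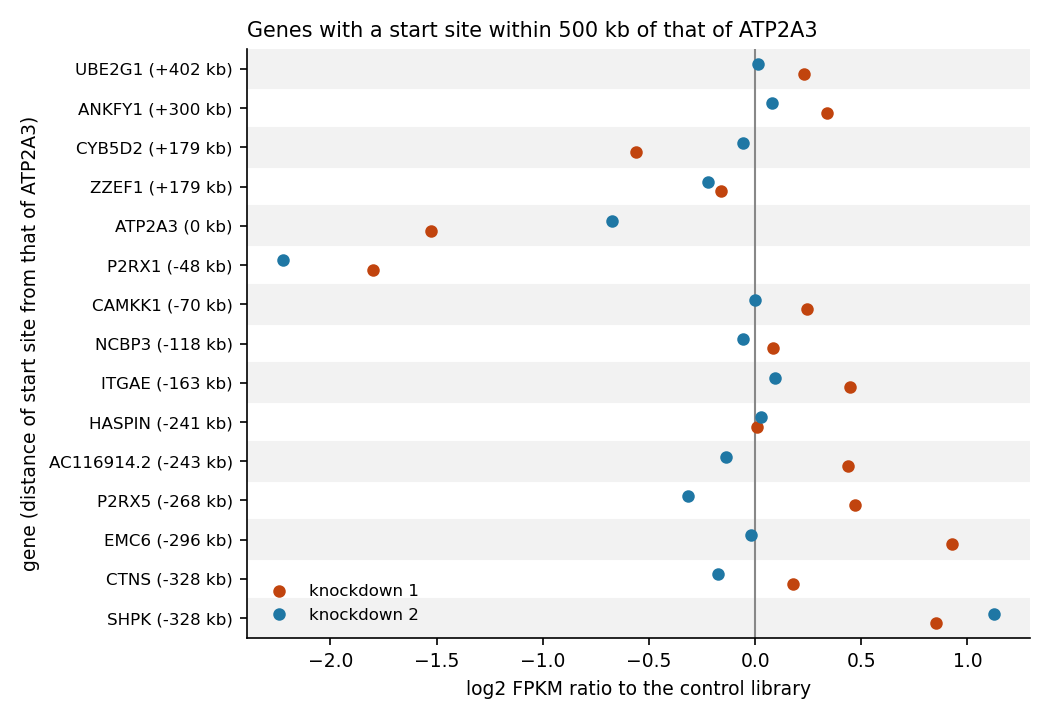
Log2 ratio of FPKM to the control in knockdown 1 and knockdown 2 for ATP2A3 and the 14 genes averaging 1 FPKM or more whose start site lies within 500 kb of its own, in genome order with the distance in brackets. ATP2A3 (−1.52 and −0.67) and P2RX1 (−1.80 and −2.22) lie left of the others in both libraries.

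Since TWIST1 is a basic helix-loop-helix factor of the kind that binds E-boxes, the 250 bases before the annotated start were searched for the E-box letters CANNTG, which read the same on both strands, and for the narrower CATCTG with its reverse complement CAGATG, which is 1 of the CANNTG forms. RefSeq start windows (GRCh38.p14) were found for 8 of the 10 genes, so that ATP2A3 and ORAI1, like P2RX1, were not searched. The 8 genes gave 12 windows in all, of which 8 held CANNTG and 2 held CATCTG or CAGATG. Of 35116 windows of all genes 61.8% and 12.2% did. Some genes have more than 1 window. Those of STIM1 at chr11:3855414-3855663 and chr11:3855453-3855702 overlap and hold the same CAGCTG, which is counted in each. The windows of the genes that were lower in both knockdown libraries at similar levels are shown, with each CANNTG in capitals: RYR1 at chr19:38433441-38433690, ORAI3 at chr16:30948818-30949067 and ORAI2 at chr7:102433325-102433574, all on the plus strand.
RYR1: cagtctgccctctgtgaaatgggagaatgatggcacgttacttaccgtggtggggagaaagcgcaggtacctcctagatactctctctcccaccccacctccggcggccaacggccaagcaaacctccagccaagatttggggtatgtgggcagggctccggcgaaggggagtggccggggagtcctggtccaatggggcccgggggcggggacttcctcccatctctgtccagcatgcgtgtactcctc
ORAI3: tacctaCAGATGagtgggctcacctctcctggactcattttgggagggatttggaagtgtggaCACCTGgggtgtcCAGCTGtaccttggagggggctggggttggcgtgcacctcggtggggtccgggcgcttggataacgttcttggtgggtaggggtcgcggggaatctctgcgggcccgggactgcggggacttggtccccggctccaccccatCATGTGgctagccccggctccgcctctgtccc
ORAI2: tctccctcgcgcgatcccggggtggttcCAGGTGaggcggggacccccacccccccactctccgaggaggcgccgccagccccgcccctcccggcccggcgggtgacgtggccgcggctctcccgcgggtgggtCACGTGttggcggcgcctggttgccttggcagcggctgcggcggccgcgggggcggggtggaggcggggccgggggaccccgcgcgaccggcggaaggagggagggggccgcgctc
The RYR1 window held 0 such runs, the ORAI2 window 2 and the ORAI3 window 4, 1 of them CAGATG. An ATP2A2 window held the other CATCTG, in a gene that was not lower on the deposited scaling. TWIST1 itself stood at 2.86 FPKM in the control (98 reads), against 1.58 for knockdown 1 (50 reads) and 1.63 for knockdown 2 (54 reads). Neither test called it, with an adjusted p of 0.528 by limma and 0.406 by limma-voom.

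The remaining genes of calcium handling were followed in 6 lists of 68 genes, of which 41 averaged at least 1 FPKM. Of these 41, 14 were lower in both knockdown libraries and 21 higher, against 30.8% and 42.5% of all genes; the counts were 19 and 12 when reads were scaled to all assigned reads, where 43.7% and 29.8% of all genes were lower and higher, and 14 and 15 with quantile normalization, where 33.9% and 38.5% were. The counts of the single lists that follow moved with the scaling too, and are read against these shares. By limma 0 reached an adjusted p of 0.05, as did 0 of all 12640 genes. At an unadjusted p under 0.05, 2 of the 41 were higher and 0 lower, where 690 and 471 of the 12640 genes were. By limma-voom 0 of 51 tested passed, where 0.865% of all genes tested did. The median log2 change of the 41 was 0.04, as was that of all genes. The 4 further SERCA, IP3 and ryanodine receptor genes given above form 1 of these lists: 2 were measured, ATP2A1 and ITPR2, and both were lower in both knockdown libraries on the deposited scaling, with ITPR2 in knockdown 2 at 98.3% of the control (87.5% to 110.4%), an interval that includes the control level; with quantile normalization 1 of the 2 was lower in both.

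Among proteins that bind or regulate STIM and ORAI, 2 of 9 measured genes were lower in both knockdown libraries and 5 higher on the deposited scaling, 4 and 3 with quantile normalization, and 3 and 3 when scaled to all assigned reads. SELENOK, a reticulum selenoprotein needed for calcium flux in immune cells, was at 7.36, 10.6 and 10.1 FPKM (log2 change 0.44; limma's adjusted p = 0.537). CRACR2B, a cytosolic regulator of ORAI channels, was at 17.9, 14.2 and 13.6 FPKM (−0.35; 0.602), and TMCO1, a reticulum calcium leak channel, at 19.4, 21.5 and 22.3 FPKM (0.17; 0.790). TRPC1, a channel linked to store emptying, was below the filter at 0.571, 0.391 and 0.335 FPKM.

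Among partners of the pumps and release channels, 4 of 12 measured genes were lower in both and 7 higher on the deposited scaling, 3 and 4 with quantile normalization, and 5 and 4 when scaled to all assigned reads. FKBP1A, whose product FKBP12 binds ryanodine receptors, was at 47.3, 57.5 and 57.4 FPKM (log2 change 0.28, limma's adjusted p = 0.644). RNF170, a ubiquitin ligase that acts on IP3 receptors, was at 3.20, 1.496 and 2.59 FPKM (−0.49; 0.635). The small membrane inhibitors of SERCA known from muscle, PLN and SLN, were at or near 0: SLN was at 0 in all 3 libraries and PLN at 0.0592, 0.0642 and 0 FPKM.

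Phospholipase C genes, which supply inositol trisphosphate, had 2 of 5 measured members lower in both and 2 higher on the deposited scaling and with quantile normalization, but 3 and 0 when scaled to all assigned reads. PLCD1 was at 11.0, 9.14 and 8.04 FPKM (log2 change −0.33; limma's adjusted p = 0.630), PLCD3 at 2.73, 3.42 and 2.87, and PLCG2 at 1.87, 1.25 and 1.82. Of the pumps and exchangers that remove calcium from the cytosol across other membranes, 4 of 10 were measured, with 1 lower in both and 2 higher on the deposited scaling, 0 and 2 with quantile normalization, and 2 and 1 when scaled to all assigned reads. SLC24A1 was at 1.52, 0.820 and 1.38 FPKM, the plasma membrane pump genes ATP2B4 at 2.50, 1.65 and 2.52 and ATP2B1 at 3.71, 4.41 and 3.96 FPKM.

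Mitochondrial uptake genes had 5 of 9 measured members higher in both knockdown libraries and 3 lower on the deposited scaling, and 4 and 4 under both other scalings. VDAC1, the outer membrane channel, was at 98.9, 149.4 and 120.9 FPKM (log2 change 0.44; limma's adjusted p = 0.545) and LETM1, an inner membrane ion exchange protein, at 15.0, 26.2 and 19.3 FPKM (0.56; 0.550). MCU, the uniporter pore, was at 7.92, 7.46 and 8.91 FPKM, and MCUB, its pore-blocking homologue, at 3.09, 3.82 and 3.97 FPKM.

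**Figure D5:**
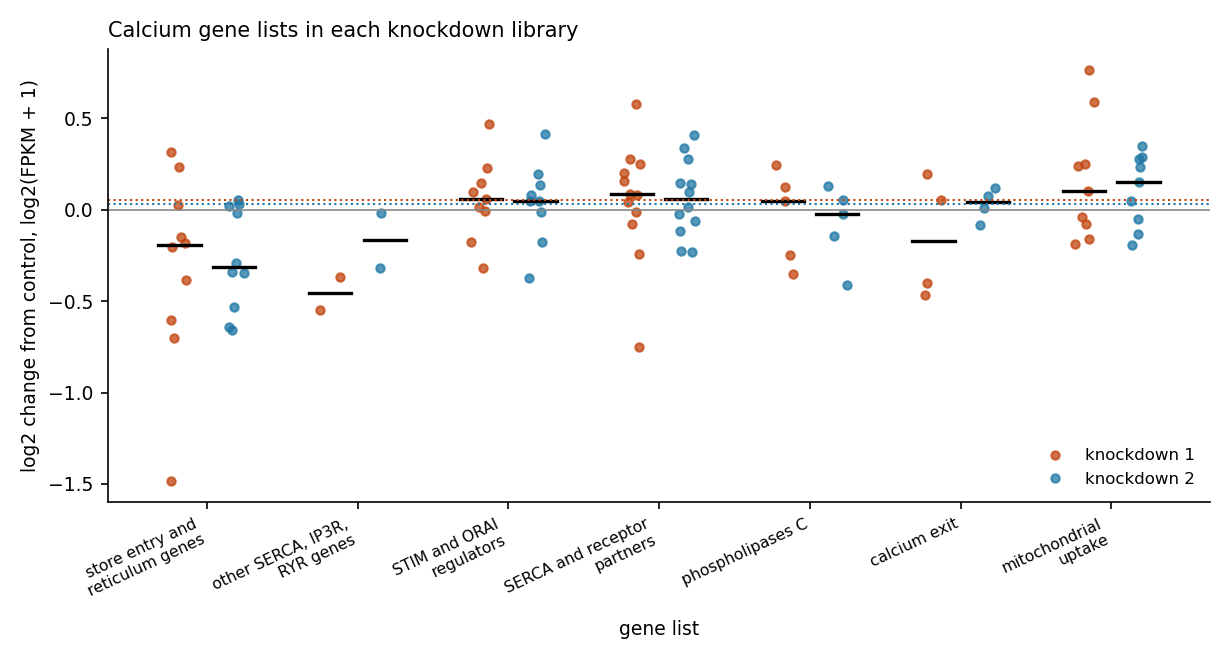
Log2 change from the control on log2(FPKM + 1) for each gene in knockdown 1 and knockdown 2, by list, with all 10 store genes at the left and only genes averaging 1 FPKM or more in the other lists; black bars are medians and dotted lines the medians of all genes (0.06 and 0.03). On the deposited scaling, which is the one plotted, the medians of the store genes lie at −0.19 and −0.32; the counts of higher and lower genes in the other lists change with the scaling.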

How the data were processed

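RNA-seq of 3 libraries (1 control, 2 TRAF7 knockdown) was analysed. The authors deposited 1 FPKM value per Ensembl gene and library. BWA, Bowtie and hg19 appear, without roles, in the submitters' processing notes, and the counting tool and strand setting are not given in the sources used here. All 58735 identifiers matched GENCODE release 29 (GRCh38), which gave symbols, positions and lengths; hg19 coordinates were not used. Multiplied by the summed exon length, 100% of the values above 0 came out as whole reads (tolerance 0.05) on 1 scale per library, so reads were recovered; assigned reads numbered 16014485, 16221721 and 16254461. The sizes implied by the FPKM scaling were 1.0446, 0.9629 and 1.0061 of the geometric mean of these totals, equal to median-of-ratios factors. Intervals are exact at 95% and cover counting error only.

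The main test was limma 3.58.1 under R 4.3.3, run with an intensity trend on log2(FPKM + 1) for means of at least 1 FPKM, with Benjamini-Hochberg adjustment over all genes and 1 residual degree of freedom; this scale understates the change of low genes. Limma-voom used recovered reads (mean of at least 10). Both were tested on simulated data with known changes, where each recovered most of the changed genes and false calls exceeded the nominal share in both. Alternatives were 3 pseudocounts, 2 other filters, quantile normalization, scaling to all assigned reads, no trend, limma-voom and each knockdown library alone.

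The members and lists were chosen with earlier results of these data known. Named genes are the 10 members, TRAF7, P2RX1 and TWIST1, up to 3 measured genes of lowest p per related list, and the measured genes within 500 kb of ATP2A3. RYR2, RYR3, UQCC2, ALKBH4, AC135048.1, TRPC1, PLN, SLN and MCU were added after their values were seen, and marker genes are named from their lists. Of 78 list symbols 76 matched directly and 2 through an identifier. One gene that this rule names is not reported here.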

Additional observations from a re-analysis of the deposited data

How the results depend on the processing

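Over 10 fits the number of genes called was 0 in the deposited form and in 7 alternatives, 3 with a mean of at least 5 FPKM, and 130 with limma-voom. With a mean of at least 5 FPKM, 6 store genes were left, of which 2 were lower in both knockdown libraries, with a median log2 change of −0.088; this filter takes out RYR1, ORAI2, ORAI3 and ITPR1. Without knockdown 1 the median of the 10 genes was −0.32 and without knockdown 2 it was −0.19, and 7 genes were lower in either case. Under the remaining alternatives the count of lower genes ran from 6 to 8 and the median from −0.28 to −0.11. ATP2A2 changed direction under quantile normalization, to −0.056. ATP2A3 was called by limma-voom only, at −1.10, and RYR1 likewise, at −1.24. On log2 FPKM the value of RYR1 ran from −0.21 with a pseudocount of 5 to −1.13 with 0.1. With 1 knockdown library against 1 control no residual degree of freedom is left, so genes called without a replicate were not counted. No paired analysis was possible because a single control library stands against both knockdown libraries.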
